A study of Rattus norvegicus with 96 samples.

Results

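10 genes of protein folding in the endoplasmic reticulum were followed across 8 brain regions of rats that were naive to alcohol, drank it without dependence, or were made dependent. They are Hyou1, Ganab, Hspa5, Canx, Calr, Pdia3, Pdia4, Hsp90b1, Xbp1 and Dnajb9, 10 of 14218 genes that had a probe set of their own on the array. Hyou1 and Ganab were chosen for their lower signal in the medial prefrontal cortex (mPFC) of drinking rats, and the other 8 for their function. The question was whether that lower signal extended to the pathway. The differences of Hyou1 and Ganab between drinking and naive rats in the mPFC are therefore given as a description, with no test.

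Expression was measured on Affymetrix Rat Genome 230 2.0 arrays, with 4 arrays per region in each of 3 groups. Per the study's methods, non-dependent rats self-administered 10% alcohol for 4 weeks and received no vapor. Dependent rats drank in the same way, were then exposed to intermittent alcohol vapor for 4 weeks, and both groups were tested for drinking again, dependent rats 6 to 8 h out of the vapor. Tissue was collected 3 weeks after the vapor ended, along with age-matched naive rats that had no alcohol, so the dependent group carried vapor exposure and later drinking together. "Drinking rats" below means the average of the non-dependent and dependent groups. Per the study's methods the 8 regions were taken from 4 rats per group, so arrays of different regions share animals, but the labels do not say which array came from which rat. Tests between regions treat the arrays as independent, and all p-values measure the spread between arrays.

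The regions were the mPFC, the core (NAcC) and shell (NAcSh) of the nucleus accumbens, the central (CeA) and basolateral (BLA) nuclei of the amygdala, the dorsolateral (dlBNST) and ventral (vBNST) bed nucleus of the stria terminalis, and the ventral tegmental area (VTA). Defining transcripts followed most labels: the glutamate transporter Slc17a7 averaged 11.4 on the log2 scale in the mPFC, 7.43 in the BLA and 3.17 to 3.74 elsewhere, dopamine receptor Drd1 read 11.4 in the NAcC, and tyrosine hydroxylase (Th) 9.59 in the VTA against 3.00 to 3.76 in the other regions. The highest NAcSh array read 6.96 for Slc17a7. The mean of 7 markers of cortical glutamatergic neurons reached 6.83 on a naive and 5.02 on a dependent NAcSh array, and all NAcSh arrays were kept. The cortical factor Tbr1 read 2.35 in the mPFC and at most 2.32 elsewhere, so it did not mark the cortex on this array. The CeA marker Prkcd read 5.14 in the CeA against 4.37 to 4.84. 4 of 96 arrays stood apart from the rest: the highest correlation of each with any other array was 0.375 (CeA non-dependent 2), 0.934 (VTA non-dependent 2), 0.952 (BLA non-dependent 3) and 0.960 (vBNST dependent 1), against about 0.990 or higher for every other array. They were left out, 92 arrays were used, and none of the 4 was from the mPFC.

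Secreted and membrane proteins enter the endoplasmic reticulum unfolded. There the chaperone BiP (Hspa5), helped by J-domain proteins and nucleotide exchange factors, holds hydrophobic stretches, while the lectins calnexin (Canx) and calreticulin (Calr) hold glycoproteins whose sugar trees have been trimmed by glucosidase II, and disulfide isomerases pair the cysteines. When unfolded proteins build up, the sensors Ire1, Perk and Atf6 start the unfolded protein response, in which Atf6 and spliced Xbp1 raise transcription of many of these chaperones.

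The promoters are shown because the motifs of that response can be read in them, for the 2 genes chosen for a lower signal and for those chosen by function. The window from 250 bases before to 50 after the transcription start was read from RefSeq (build GRCr8) for 9 of the 10 genes, with no entry used for Pdia3. In Hspa5 and Hsp90b1 the capitals mark the ER stress response element (ERSE, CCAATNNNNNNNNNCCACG on either strand), the site of NF-Y and Atf6. In Hyou1 they mark ERSE-II (ATTGGNCCACG on either strand), and in Ganab neither motif is present, so its window is in lower case. The windows lie at chr3:38452766-38453065 (Hspa5, plus strand), chr7:23012244-23012543 (Hsp90b1, minus strand), chr8:53602632-53602931 (Hyou1, plus strand) and chr1:215222763-215223062 (Ganab, plus strand).
Hspa5: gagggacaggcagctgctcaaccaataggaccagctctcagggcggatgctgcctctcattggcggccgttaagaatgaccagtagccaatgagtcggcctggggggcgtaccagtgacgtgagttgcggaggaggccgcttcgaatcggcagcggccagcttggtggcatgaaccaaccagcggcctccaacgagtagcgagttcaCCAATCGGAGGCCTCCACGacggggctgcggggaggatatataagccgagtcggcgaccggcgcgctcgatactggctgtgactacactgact
Hsp90b1: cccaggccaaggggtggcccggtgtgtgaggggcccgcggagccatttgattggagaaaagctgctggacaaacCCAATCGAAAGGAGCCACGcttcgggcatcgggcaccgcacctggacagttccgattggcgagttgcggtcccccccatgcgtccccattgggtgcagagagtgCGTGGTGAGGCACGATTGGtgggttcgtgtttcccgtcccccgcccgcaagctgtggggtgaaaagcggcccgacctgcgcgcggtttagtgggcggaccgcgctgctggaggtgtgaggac
Hyou1: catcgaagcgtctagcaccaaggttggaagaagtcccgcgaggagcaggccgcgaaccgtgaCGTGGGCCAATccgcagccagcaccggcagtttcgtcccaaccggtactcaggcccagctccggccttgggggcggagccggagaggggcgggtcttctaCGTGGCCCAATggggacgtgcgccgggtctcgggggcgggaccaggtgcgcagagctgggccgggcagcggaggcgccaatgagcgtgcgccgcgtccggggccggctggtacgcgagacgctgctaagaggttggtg
Ganab: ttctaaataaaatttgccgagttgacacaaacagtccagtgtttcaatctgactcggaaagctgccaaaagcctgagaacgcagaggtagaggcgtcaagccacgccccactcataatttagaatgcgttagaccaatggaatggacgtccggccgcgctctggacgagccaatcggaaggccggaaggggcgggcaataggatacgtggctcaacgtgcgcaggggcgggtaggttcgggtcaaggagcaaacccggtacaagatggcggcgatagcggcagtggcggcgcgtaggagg

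ERSE occurred in 5 of the 9 genes (Hspa5, Canx, Calr, Hsp90b1 and Xbp1) and in 0.066% of 33469 promoter windows of the genome. The matches of the other 3 genes follow, with the conserved ends in capitals and the free spacer in lower case, at chr10:35158069-35158087 (Canx), chr14:84604558-84604576 (Xbp1) and chr19:40213135-40213153 (Calr, where the gene's strand carries the reverse complement).
Canx: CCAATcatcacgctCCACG
Xbp1: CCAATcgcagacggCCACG
Calr: CGTGGtcgaccctgATTGG
The Hsp90b1 window held 2 matches, 1 on each strand. ERSE-II was found in Hyou1 alone of the 9, with 2 matches, and in 0.051% of all windows. The core of a further Xbp1 and Atf6 site, TGACGTGG on either strand, was found in Hyou1 and in 0.595% of windows, where it overlapped the first ERSE-II match. Hyou1 has a second annotated start whose window held none of the 3 motifs, and Ganab, Pdia4 and Dnajb9 held neither ERSE nor ERSE-II in these windows. Each match is a string of letters, not a measured binding site.

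**Figure D1:**
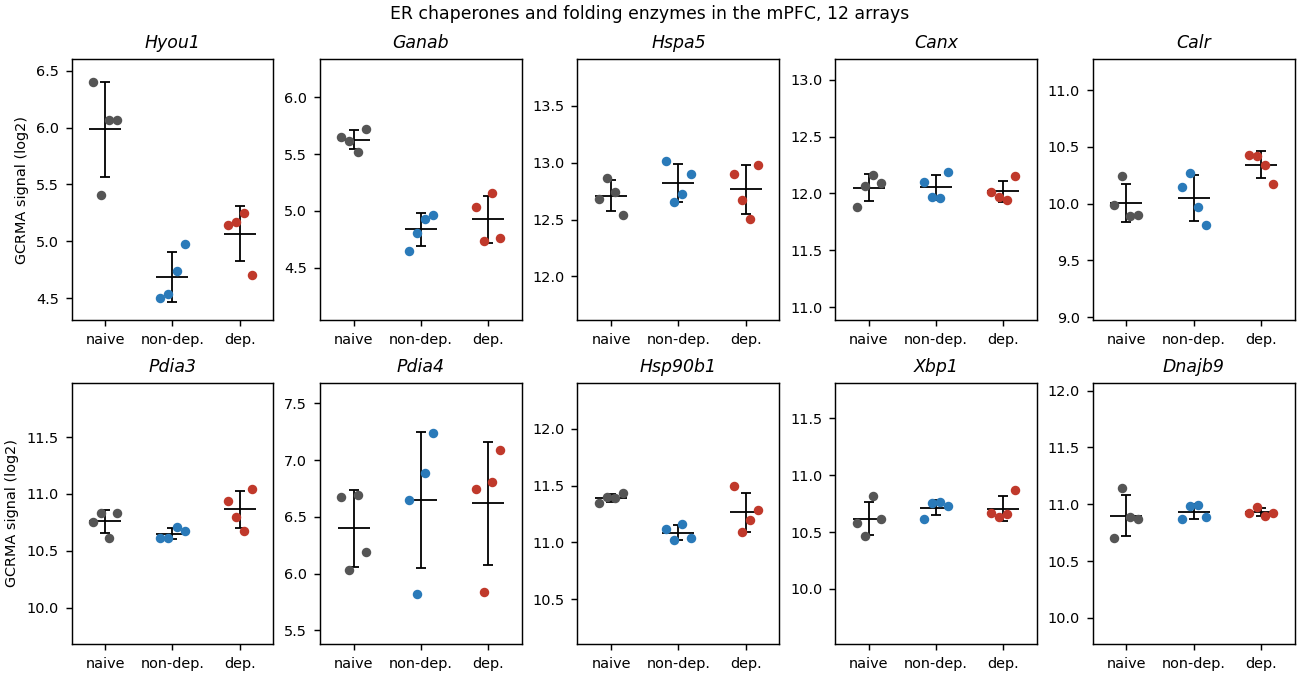
GCRMA signal (log2 scale) of the 10 genes on the 12 mPFC arrays. Each point is 1 array, the bar is the group mean and the whiskers 1 SD (n = 4), and every panel spans the same 2.3 log2 units. All 8 drinking arrays of Hyou1 and Ganab lie below all 4 naive arrays, while the groups of the other genes overlap, except Hsp90b1 between naive and non-dependent rats.

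Hyou1 (Grp170) is a large relative of Hsp70 that exchanges nucleotide on BiP and holds unfolded chains. Its signal on the 4 naive mPFC arrays was 6.40, 5.41, 6.07 and 6.06. On the non-dependent arrays it was 4.50, 4.53, 4.74 and 4.97, and on the dependent arrays 5.14, 5.17, 5.25 and 4.71. The lowest naive array was above the highest drinking array. On the log2 scale the difference was -1.30 in non-dependent rats (2.46-fold lower) and -0.92 in dependent rats (1.89-fold lower), and for drinking rats together the difference was -1.11 ± 0.17 (SE), 2.16-fold. These values chose the gene. Dependent and non-dependent rats, a contrast the choice did not use, differed by 0.38 (95% interval -0.05 to 0.81, limma adjusted p = 0.955).

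A second Hyou1 probe set did not show the difference. It read 3.11 ± 0.06, 2.96 ± 0.14 and 3.09 ± 0.12 (SD, n = 4) in naive, non-dependent and dependent mPFC, under the mean of 4 set as the filter for low signal. With the mean of both probe sets the drinking difference was -0.60. The signal of the probe set used was itself low: outside the mPFC its naive means were 3.80 to 4.18, and it fell under the filter in the NAcC, NAcSh, CeA and BLA.

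The hybridization controls, bacterial and phage transcripts that carry no rat RNA, were highest on the non-dependent mPFC arrays, where Hyou1 was lowest. Their mean over 18 probe sets was 9.49 ± 0.40 on naive, 10.2 ± 0.08 on non-dependent and 9.61 ± 0.15 on dependent mPFC arrays. On the dependent arrays the control mean was near the naive one, and Hyou1 was lower than on the naive arrays. The naive array with the lowest Hyou1 had the highest control mean of its group, 10.0. With that mean as a covariate the drinking difference of Hyou1 was -0.72 and that of Ganab -0.70. The difference of Hyou1 in non-dependent rats then went from -1.30 to -0.64 and that in dependent rats from -0.92 to -0.80, so the order of the groups turned. The control means of the non-dependent arrays (10.10 to 10.27) lay above all naive (9.13 to 10.05) and dependent ones (9.47 to 9.81). Control level and non-dependent group thus cannot be told apart, and the adjusted values rest on that. The middle control of Gapdh moved as well: it read 12.79, 12.28, 12.69 and 13.14 on naive arrays, 11.69, 11.97, 12.19 and 11.77 on non-dependent arrays and 12.07, 11.45, 12.87 and 11.99 on dependent arrays. All drinking arrays but dependent replicate 3 lay below the naive ones. The part of these controls in the result was not tested.

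Ganab, the catalytic subunit of glucosidase II, cuts the glucoses that decide whether a glycoprotein binds calnexin and calreticulin. It read 5.65, 5.61, 5.52 and 5.72 on naive arrays, 4.65, 4.80, 4.93 and 4.96 on non-dependent arrays and 5.04, 4.73, 5.16 and 4.76 on dependent arrays. The naive arrays had an SD of 0.09 and stood above all drinking arrays. The difference was -0.79 in non-dependent rats (1.73-fold), -0.70 in dependent rats (1.63-fold) and -0.75 ± 0.10 (SE) in drinking rats together. Dependent and non-dependent rats differed by 0.09 (95% interval -0.17 to 0.35, adjusted p = 0.996). Of all 8989 genes tested in the mPFC, 7.89% had non-dependent arrays all below the naive ones, 3.97% dependent arrays and 1.79% all 8 drinking arrays, while in 1.09% all drinking arrays were above. The 3 contrasts against naive rats share the same 4 naive arrays.

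The other 8 genes did not pass the threshold (limma, Benjamini-Hochberg adjusted p under 0.05 over all genes) in the mPFC. The count was 0 of 8 for non-dependent rats, 0 of 8 for dependent rats and 0 of 8 for drinking rats against naive rats, where 0.0779%, 0.0556% and 0.934% of all genes passed. Between dependent and non-dependent rats it was 0 of 10, beside 0% of all genes. At an unadjusted p under 0.05, 1 gene passed in each of the 4 comparisons, Hsp90b1 or Calr, where 17.7%, 17.1%, 20.9% and 5.2% of all genes did in the same order. The ordinary t-statistic that the study's methods use, with the same adjustment, called 0 in each. It called hardly any of all genes in drinking rats, so its 0 says little about the 8. Over the 8 genes the median drinking difference was 0.06 on the log2 scale, beside -0.01 for all genes.

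Hspa5 (BiP), the chaperone that Hyou1 serves, read 12.68, 12.87, 12.74 and 12.54 on naive arrays. Its non-dependent arrays read 13.02, 12.66, 12.72 and 12.90 and its dependent arrays 12.90, 12.67, 12.51 and 12.98. The groups overlapped throughout. Its drinking difference was 0.09 (95% interval -0.16 to 0.33, limma adjusted p = 0.708).

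Hsp90b1 (Grp94), the Hsp90 of the endoplasmic reticulum, was the other gene with lower values. Naive arrays read 11.34, 11.40, 11.39 and 11.43, non-dependent arrays 11.12, 11.02, 11.17 and 11.04, and dependent arrays 11.49, 11.09, 11.20 and 11.28. Non-dependent arrays were all below the naive arrays, and dependent arrays overlapped both. The difference was -0.31 in non-dependent rats (adjusted p = 0.153) and -0.22 in drinking rats together (95% interval -0.41 to -0.03, adjusted p = 0.179). Neither passed the threshold.

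Dnajb9 (ERdj4), a J-domain partner of BiP, read 10.70, 11.14, 10.89 and 10.87 on naive arrays and 10.87 or more on the 8 drinking arrays. The difference was 0.03 (95% interval -0.16 to 0.22), and the highest and lowest of the 12 arrays were both naive.

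The lectins that bind the sugars trimmed by glucosidase II did not pass the threshold. Canx, the membrane lectin, read 11.88, 12.07, 12.16 and 12.09 on naive arrays and 11.94 to 12.19 on the drinking arrays, with a difference of -0.01 (95% interval -0.20 to 0.17, adjusted p = 0.946). Its 3 probe sets did not move alike: the other 2 differed by -0.29 and 0.14. Calr, the soluble lectin, read 9.99, 10.24, 9.89 and 9.90 on naive arrays, 10.15, 10.27, 9.97 and 9.81 on non-dependent arrays and 10.43, 10.42, 10.34 and 10.18 on dependent arrays. The 3 highest arrays were dependent, the fourth lay below 1 naive and 1 non-dependent array, and the difference from naive was 0.34 (95% interval 0.07 to 0.61, adjusted p = 0.214).

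The disulfide isomerases did not pass either. Pdia3 (ERp57), which works on glycoproteins held by the lectins, read 10.75, 10.83, 10.61 and 10.84 on naive arrays, 10.61 to 10.70 on non-dependent arrays and 10.67 to 11.05 on dependent arrays. Its drinking difference was -0.00 (95% interval -0.19 to 0.19). Pdia4 (ERp72) had the widest spread, 6.68, 6.04, 6.70 and 6.19 on naive arrays and 5.82 to 7.24 on drinking arrays, and its interval, -0.35 to 0.82, left the most room.

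Xbp1, the factor that activates many of these genes once its RNA is spliced, read 10.58, 10.46, 10.82 and 10.62 on naive arrays and 10.62 to 10.87 on drinking arrays. The difference was 0.09 (95% interval -0.10 to 0.28, adjusted p = 0.596). Spliced and unspliced RNA were not told apart here. For all 8 genes the 95% interval of the drinking difference had a lower bound of -0.41 or higher, and for 0 of 8 did it reach -0.5.

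Markers of some cell types were lower beside these values on some arrays. The mean of 7 oligodendrocyte markers ranged over 9.79 to 10.2 on naive, 9.56 to 10.2 on non-dependent and 9.36 to 9.90 on dependent mPFC arrays, and that of 8 astrocyte markers over 10.5 to 10.9, 10.5 to 10.7 and 10.3 to 10.6. In drinking rats 3 of 7 and 3 of 8 were lower at an unadjusted p under 0.05, which 20.9% of all genes reached in either direction, and limma called 0 of them. The mean of 8 neuron markers was 11.9 in naive and 11.7 in both drinking groups. That of 6 striatal medium spiny neuron markers ranged over 5.68 to 6.03 on naive and 5.30 to 5.52 on non-dependent arrays. On dependent arrays it ranged over 5.37 to 6.06. In naive, non-dependent and dependent rats 8 microglia markers averaged 6.01, 5.92 and 5.83, and 8 endothelial and mural markers 6.83, 6.78 and 6.85. In tissue of mixed cells, fewer cells of a type and less RNA per cell cannot be told apart. The part of cell makeup in the Hyou1 and Ganab values was not tested.

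The wider pathway was read from 6 lists with 80 genes besides the 10, of which 74 were measured and 64 passed the filter in the mPFC. In the fit of all 3 groups, 0 of them passed the threshold in each of the 4 comparisons (0 of 64 for drinking rats, where 0.934% of all genes did). At an unadjusted p under 0.05, 10 were lower and 7 higher in drinking rats, 26.6% of 64, beside 20.9% of all 8989 genes. The median difference was -0.04, beside -0.01 for all genes. By list the median was 0.14 for 12 disulfide and proline isomerases, -0.06 for 10 genes of the Hsp70 cycle, -0.06 for 17 of the translocon and oligosaccharyltransferase, -0.09 for 10 sensors and factors of the unfolded protein response, -0.13 for 3 of the glycoprotein cycle and -0.15 for 12 of ER-associated degradation.

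**Figure D2:**
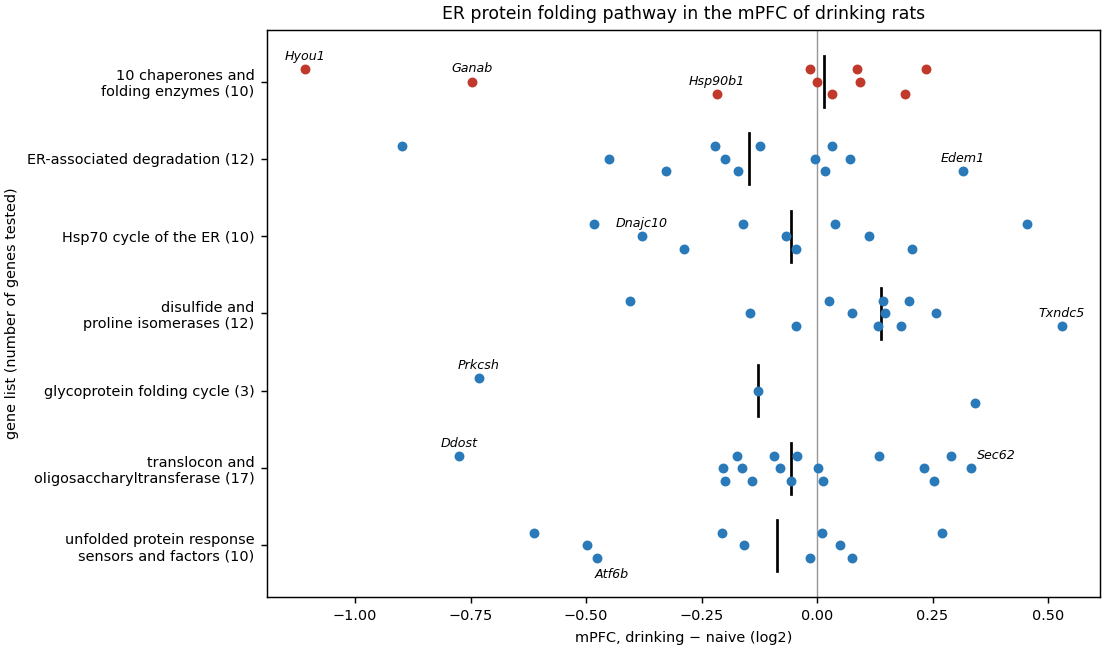
Difference between drinking and naive rats in the mPFC (log2) for the 10 genes (red) and for the 64 tested genes of 6 pathway lists (blue). Each point is 1 gene, black lines are list medians and the named genes are described in the text. Hyou1 at -1.11 lies farthest to the left, and the medians of the lists lie between -0.15 and 0.14.

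The genes with the smallest p in each direction were spread over the lists. Dnajc10 (ERdj5), a J-domain reductase that works with BiP, read 9.77 ± 0.14, 9.33 ± 0.13 and 9.45 ± 0.11 (SD, n = 4) in naive, non-dependent and dependent rats, a difference of -0.38 (adjusted p = 0.0657). Its drinking arrays were all below the naive arrays, which held for 1 of 64 pathway genes and 1.79% of all genes, and those of Edem1 were all above, which held for 1 of 64 and 1.09%. Ddost, a subunit of the oligosaccharyltransferase that puts the sugar tree on the chain, differed by -0.77 (adjusted p = 0.0762), and Atf6b, a relative of the sensor Atf6, by -0.48 (adjusted p = 0.0802). In the other direction were Txndc5, a disulfide isomerase (0.53, adjusted p = 0.0794), Edem1, a lectin-like protein that sends misfolded glycoproteins to degradation (0.31, adjusted p = 0.124), and Sec62 of the translocon (0.33, adjusted p = 0.139). Prkcsh, the second subunit of glucosidase II and so the partner of Ganab, was singled out after its values were seen. It read 9.67 ± 0.21, 8.89 ± 0.46 and 8.98 ± 0.51, a difference of -0.73 (adjusted p = 0.103), close in size to that of Ganab but with arrays that overlapped.

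Without dependent replicate 3 of the mPFC the pathway count rose from 0 to 12 (10 lower, 2 higher), while the share of all genes called rose from 0.934% to 9.94%. The 10 that were then lower included Ddost, Dnajc10, Atf4, Atf6b, Mbtps1, Os9 and Sil1. The 8 genes chosen by function stayed at 0, with a lowest adjusted p of 0.166.

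Outside the mPFC neither Hyou1 nor Ganab passed the threshold. The drinking difference of Hyou1 was -0.13 in the dlBNST, -0.07 in the vBNST and -0.03 in the VTA, where it was tested, and between -0.06 and 0.06 in all regions under the filter. That of Ganab ranged from -0.18 in the dlBNST to 0.26 in the CeA (95% interval 0.03 to 0.49, adjusted p = 0.594). In the CeA the naive arrays of Ganab read 4.63, 4.53, 4.45 and 4.67 and the 4 dependent arrays 4.86, 5.09, 4.67 and 4.97. In the NAcC the naive arrays read 4.66, 4.33, 4.70 and 4.62 and the dependent arrays 4.90, 5.09, 4.86 and 5.03. The difference was 0.39 (95% interval 0.13 to 0.65, limma adjusted p = 0.416). In the CeA and NAcC the direction was thus opposite to that in the mPFC, and the threshold was not passed. The dependent means of Ganab in the dlBNST (5.23) and vBNST (5.36) lay below the naive means (5.50 and 5.54), as in the mPFC.

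In the 7 other regions 0 of 264 tests of the 10 genes passed the threshold over 4 comparisons, and 10 had an unadjusted p under 0.05, a level that 4.41% to 15.7% of all genes reached, depending on region and comparison. All genes gave 0% in these regions except 0.103% in the dlBNST (dependent against naive) and 0.0115% in the vBNST (drinking against naive). With all 96 arrays the count was 0 as well, where all genes gave 0% except 0.103% in the dlBNST (dependent against naive). The ordinary t-statistic also gave 0, and the share of all genes it called in these regions is not given here. The largest differences were those of Hsp90b1, whose arrays spread widely. In the NAcSh, Hsp90b1 read 9.44, 9.17, 9.54 and 9.32 on naive arrays but 9.43, 10.83, 9.16 and 11.36 on dependent arrays, so 2 dependent arrays carried a difference of 0.83 (95% interval -0.04 to 1.70, adjusted p = 0.432). In the VTA it differed by 0.70 between dependent and non-dependent rats (95% interval -0.07 to 1.47, adjusted p = 0.363). In the CeA, Pdia4 differed by -0.55 between dependent and naive rats (95% interval -1.08 to -0.01, adjusted p = 0.680).

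**Figure D3:**
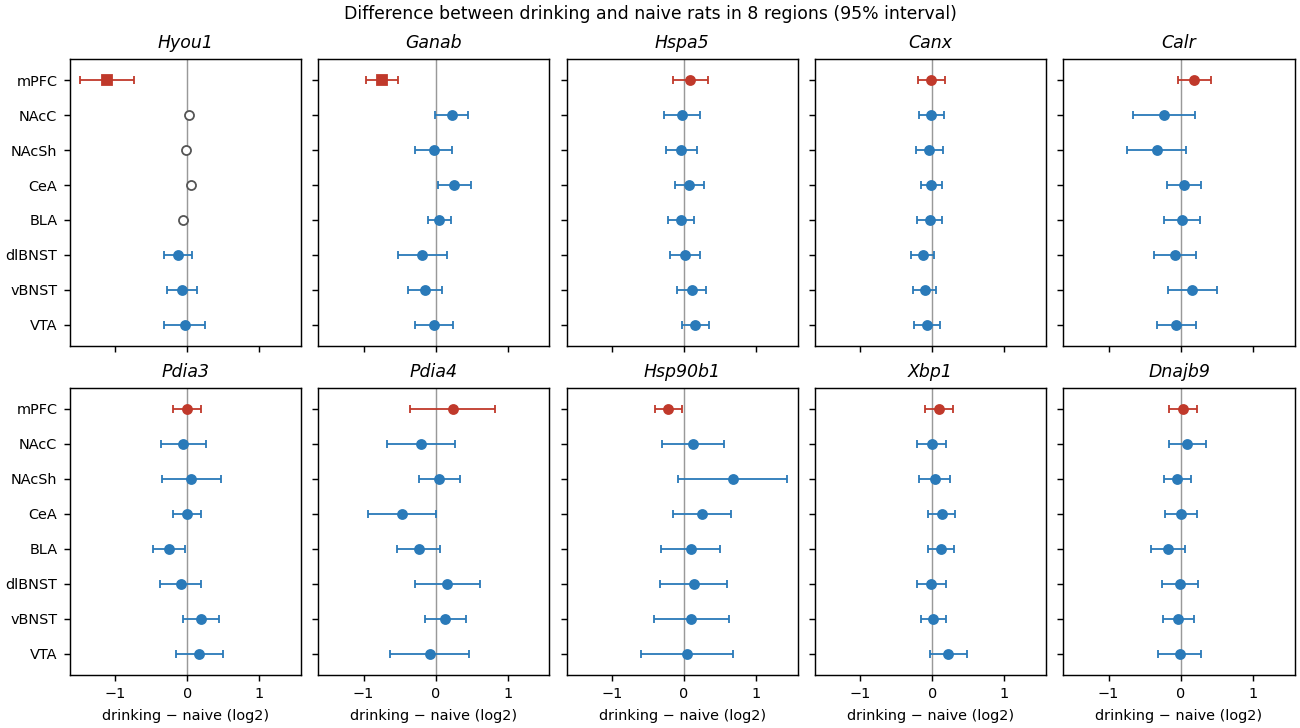
Difference between drinking and naive rats (log2) for each gene in each of 8 regions, with its 95% interval. Squares mark Hyou1 and Ganab in the mPFC, the values that chose them, open circles mark Hyou1 in 4 regions where its mean was under the filter, and red marks the mPFC. Both squares lie left of 0 at -1.11 and -0.75, and among the other points with an interval only those of Hsp90b1 in the mPFC (-0.22), Ganab in the CeA (0.26) and Pdia3 in the BLA (-0.25, adjusted p = 0.852 by limma) have one that leaves out 0.

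The difference in the mPFC was then set against the mean difference of the 7 other regions. Ganab stood at -0.75 in the mPFC and 0.02 on average elsewhere, and Hyou1 at -1.11 and -0.03, as a description. For Hyou1 the other regions give no fair contrast. Its naive means there, 3.80 to 4.18, were close to the median of all probe sets on an array (3.85 to 3.88). Some probe sets read lower, such as Drd1 at 2.45 in the VTA. Whether a lower Hyou1 level could have shown in those regions was not tested. Of the other 8 genes, 0 differed between the mPFC and the rest by this interaction (adjusted p from 0.419 to 0.998, 0 with an unadjusted p under 0.05), where 7.38% of all genes did. The farthest was Hsp90b1, -0.22 in the mPFC and 0.20 elsewhere, a gap of -0.42 with a 95% interval from -0.97 to 0.13. Pdia4 (0.24 and -0.09) and Calr (0.19 and -0.07) lay on the other side.

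The levels of the folding genes in naive rats were then compared between regions. All 8 genes chosen by function passed an F test over 8 regions (8 of 8, where 96.6% of all genes did), and 5 of the 8 were higher in the mPFC than in the mean of the 7 other regions, where 37.8% of all genes were higher and 43% lower. Hsp90b1 was higher by 1.77 ± 0.13 on the log2 scale (SE, 3.40-fold, adjusted p = 1.95e-13), Pdia4 by 1.67 ± 0.18 (3.18-fold), Calr by 0.94 ± 0.12, Pdia3 by 0.93 ± 0.10 and Hspa5 by 0.49 ± 0.07. Canx (-0.14, adjusted p = 0.0154) and Dnajb9 (-0.53) were lower, and Xbp1 (-0.14, adjusted p = 0.0546) missed the threshold. With the mean of all its probe sets Pdia3 no longer passed (0.13), and Canx turned to 0.15.

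Hsp90b1 averaged 11.39 ± 0.04 (SD, n = 4) in the naive mPFC and 10.10 ± 0.33 in the vBNST, the next region (adjusted p = 6.13e-08), and its lowest level was 9.05 ± 0.42 in the VTA. Its other neighbours in that order did not differ beyond their spread. Pdia4 stood at 6.40 ± 0.34 in the mPFC against 5.12 ± 0.41 in the VTA, the next region, and Calr at 10.01 ± 0.16 against 9.28 ± 0.19, also in the VTA. Below the mPFC, no neighbouring regions of Pdia4 or Calr differed. Hspa5 was the most even of the 5, from 12.71 ± 0.14 in the mPFC to 12.04 ± 0.22 in the NAcC. Pdia3 fell from 10.76 ± 0.10 in the mPFC to 10.36 ± 0.09 in the dlBNST and to 9.34 ± 0.10 in the CeA.

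Canx, Xbp1 and Dnajb9 followed another order, with the VTA first. Canx averaged 12.55 ± 0.06 there, Xbp1 11.05 ± 0.07 and Dnajb9 11.78 ± 0.23, and the vBNST came second for each, without a difference from the VTA beyond their spread (adjusted p = 0.0593 for Canx, 0.325 for Dnajb9 and 0.50 for Xbp1). Against the mean of the 7 other regions the VTA was higher in these 3 of 8 genes and lower in 2, Hsp90b1 (-0.91) and Pdia3 (-0.65), where 33.3% of all genes were higher and 30.7% lower. Dnajb9 was lowest in the mPFC, at 10.90 ± 0.18.

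Hyou1 and Ganab had their highest naive means in the mPFC too, but the same 4 arrays entered their choice, so these levels carry no test. Hyou1 stood at 5.99 ± 0.42 there and at 3.80 to 4.18 in the other regions. In drinking rats it averaged 4.88 ± 0.29 (SD, n = 8) in the mPFC and 3.78 to 4.11 elsewhere, so the mPFC remained the highest. Ganab averaged 5.63 ± 0.09 in the naive mPFC, 5.54 ± 0.21 in the vBNST and 5.50 ± 0.25 in the dlBNST. In drinking rats its mPFC mean, 4.88 ± 0.17, lay below those of the vBNST (5.40 ± 0.12) and dlBNST (5.32 ± 0.29).

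**Figure D4:**
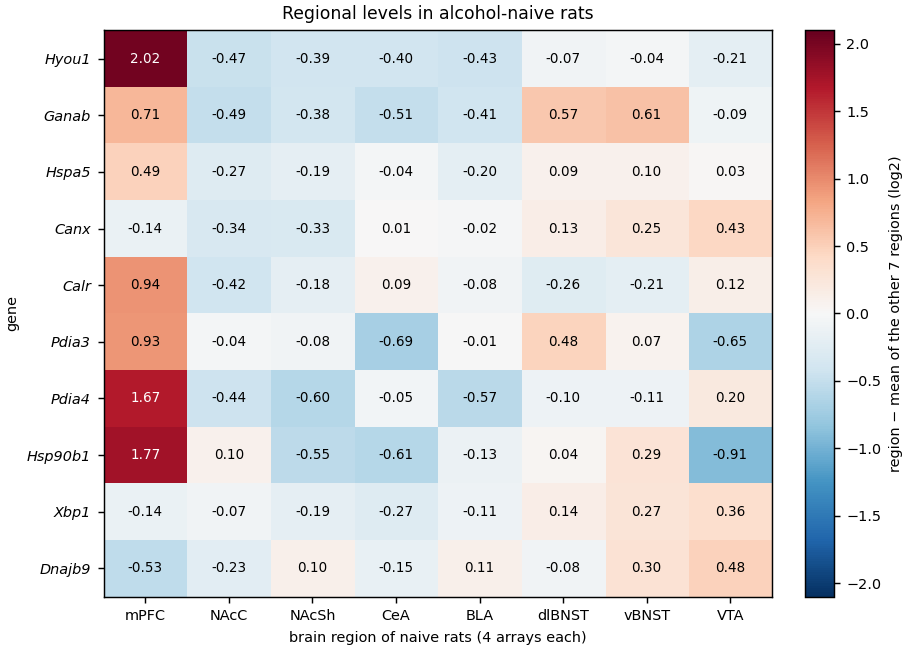
Level of each gene in each region of naive rats minus the mean of the other 7 regions (log2), 4 arrays per region. Red is higher and blue lower, and the number is the difference. The mPFC column holds the largest positive values (2.02 for Hyou1, 1.77 for Hsp90b1, 1.67 for Pdia4), and Canx, Xbp1 and Dnajb9 are highest in the VTA.

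The mPFC arrays stood apart in other ways. The 3′ control of Gapdh averaged 13.4 in the naive mPFC and 9.82 to 11.5 in the other regions, and the 3′ control of Actb 11.7 against 9.59 to 11.1. Ttr, a choroid plexus transcript, averaged 9.21 in the dlBNST and 7.32 in the vBNST against 4.12 to 5.16 elsewhere. The amount of RNA amplified was 30 or 50 ng depending on the region, and which regions received which amount is not given in the sources used here. Region and sample preparation cannot be told apart, and the part of these values in the regional order was not tested.

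Of 62 other pathway genes tested in naive rats, 19 were higher in the mPFC and 26 lower, where 37.8% of all genes were higher and 43% lower. Their median was -0.05, beside -0.07 for all genes. Of 16 cytosolic and mitochondrial chaperones 5 were higher and 5 lower. Prkcsh was higher by 4.62, Atf4, a factor of the Perk branch, by 2.99, and Vcp, the ATPase that pulls proteins out for degradation, by 2.98. Uggt2, a sensor of glycoprotein folding, was lower by 2.22 and Mbtps2, a protease that releases Atf6, by 1.70. All 5 were chosen after their values were seen.

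Whether the genes rose and fell together from array to array was asked within each region, with values centred on their group means. Of 72 correlations with Hspa5 (9 genes, 8 regions, 11 or 12 arrays each), 44 were positive and 0 passed an adjusted p of 0.05 in a two-sided permutation test, while 5 had an unadjusted p under 0.05. The strongest were with Hsp90b1, positive in the dlBNST (r = 0.79, rho = 0.74, 12 arrays, permutation p = 0.0189 for r and 0.02 for rho, adjusted p = 0.379 and 0.293) and negative in the vBNST (r = -0.79, rho = -0.74, 11 arrays, permutation p = 0.0122 and 0.0191, adjusted p = 0.379 and 0.293). Without the 2 arrays farthest from the median of Hspa5, r was 0.55 and -0.68. In the mPFC the largest was with Canx (r = 0.58, permutation p = 0.0685, rho = 0.57, permutation p = 0.0738, adjusted p = 0.571 and 0.540, r = 0.44 without those 2 arrays).

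Over all 92 arrays, again centred on region and group means, the genes most like Hyou1 were Ppp1r9b (r = 0.53), Spsb3 (0.47), Hid1 (0.47), Hcfc1r1 (0.47) and Arhgef17 (0.46). Ganab came at r = 0.16, rank 1081 of 8761 genes, and Hspa5 at -0.18. The genes most like Hspa5 were Mageh1 (r = 0.64), Ctcf (0.62), Selenot (0.62), Esf1 (0.62) and Aff4 (0.61), and among the folding genes Pdia4 came nearest at 0.33. The 92 points share regions, normalization and rats, so these values are a description. Outside the mPFC the region means of Hyou1 were 3.81 to 4.13, near or under the filter of 4. The part of that low signal in its r values was not tested.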

How the data were processed

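Signals on the log2 scale were deposited as the authors computed them by GCRMA, version 2.36.0 under R 3.03 per the labels. Probe sets annotated to 1 symbol were used, the one with the highest mean over 92 arrays per gene. Per region, genes whose mean exceeded 4 were tested with limma 3.58.1 in R 4.3.3, 3 groups in 1 fit, and adjusted by Benjamini-Hochberg over all genes at 0.05. The number of arrays, 3 or 4 per group, limits the precision. The genes and lists were chosen with earlier results of these data known. All 10 genes were named, and pathway genes if they passed, or else the 3 with the smallest p in each direction. Correlations were tested with 100000 permutations within groups, a form adopted because permuting across groups called too many null relations in simulated data. Alternatives covered filters, scaling, probe sets, arrays, weights, covariates and the replicate number.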

Additional observations from a re-analysis of the deposited data

Results flagged for a closer look

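In groups of 4 arrays, 14 of 200 sets of 4 values had 1 array far from the other 3 by Dixon's ratio, the gap to the nearest array over the whole range. Chance gives about 1 in 20, or 10. For Hyou1 these were the NAcC non-dependent replicate 3 (ratio 0.969, above the others at 3.78 to 3.79), NAcSh non-dependent replicate 2 (0.896), CeA dependent replicate 2 (0.964) and VTA naive replicate 1 (0.978, 4.47 with the others near 3.89), 3 of them in regions where its mean was under the filter. For Ganab it was VTA dependent replicate 1 (0.852), and for Hspa5 CeA naive replicate 1 (0.979, 11.99 against 12.33 to 12.34). Pdia3 had 2, NAcC dependent replicate 2 (0.906, 9.37 against 9.98 to 10.04) and VTA naive replicate 2 (0.909). Pdia4 had NAcSh dependent replicate 4 (0.850) and Hsp90b1 NAcC naive replicate 3 (0.836). Xbp1 had mPFC dependent replicate 4 (0.839) and VTA naive replicate 1 (0.957), and Dnajb9 vBNST non-dependent replicate 4 (0.870) and VTA dependent replicate 3 (0.897, 12.30 against 11.75 to 11.81). In the mPFC 1 set of 4 values was concerned, that of Xbp1 in dependent rats.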

How the results depend on the processing

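The count of 0 for the 8 genes chosen by function in the mPFC held under each alternative run. The ordinary t-statistic and the fit with the hybridization controls called few or none of all genes in drinking rats, as given below. A count of 0 there says little about the 8. The F test kept 8 of 8, or all 7 that were tested with the filter above 6, which removed Pdia4. With array weights 3 member calls appeared in the other regions, all in the VTA between dependent and non-dependent rats (Calr, Ganab and Hsp90b1), where the weights called 13.1% of all genes. Pathway genes called in the mPFC of drinking rats numbered 9 with array weights, 1 with the Gapdh control difference as a covariate (chosen after seeing the data) and 1 with the replicate block (Prkcsh), and leaving out 1 array gave 0 to 12, the latter without dependent replicate 3 and 1 without naive replicate 2. Between non-dependent and naive rats they numbered 0 in the fit reported, 5 with the Gapdh covariate and 4 with array weights. They numbered 3 when only the groups compared were fitted (Ddost, Mbtps1 and Os9), where the share of all genes called rose from 0.0779% to 2.44%. With the ordinary t-statistic 1 passed (Mbtps1). Between dependent and naive rats 2 passed with array weights (Sil1 and Txndc5). The share of all genes in the other fits of these 2 comparisons is not given here. In drinking rats the calls over all genes, given below, also rose with array weights, the Gapdh covariate and the replicate block. Quantile normalization gave 1 correlation with Hspa5 past the threshold, Calr in the NAcSh (r = -0.86).

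Differences near 0 changed sign: Canx in drinking rats was 0.020 with array weights and 0.028 with quantile normalization (-0.072 to 0.022 leaving out 1 array), Pdia3 0.031 and 0.028 (-0.049 to 0.031), and with the hybridization controls as a covariate Dnajb9 was -0.13 and Hspa5 -0.039 (Dnajb9 -0.035 to 0.11 leaving out 1 array). With the mean of its probe sets Canx was 0.15 higher in the naive mPFC, and Pdia3 no longer passed there (0.13). The cause was not tested. The filter above 6 removed Hyou1 and Ganab, and it removed Pdia4 from the naive comparison and from each region but the mPFC. Xbp1 in the naive mPFC passed with no filter, the filter above 6, the mean of probe sets and the replicate block. The replicate block changed no other call of the 10 genes, and over all genes the drinking comparison called 84 genes, 281 with the block, 721 with array weights and 298 with the Gapdh covariate, but 54 with the mean of probe sets, 2 with the ordinary t-statistic and 0 with the hybridization controls as a covariate. Leaving out 1 array gave 0 (without naive replicate 1, 3 or 4) to 893 genes (without dependent replicate 3). Numbers do not name rats, and same-numbered arrays of a region correlated over 0.1 in 28 of 88 pairs, from -0.38 to 0.47, and in the mPFC in 7 of 12 pairs (median 0.118, beside -0.024 for differently numbered pairs). In no region did every pair exceed 0.1, and the fits reported use no block. That rule cannot exclude a source shared by same-numbered arrays, which was not tested.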
